A study of Mus musculus with 8 samples.

Results

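The subject here is a set of 10 genes for chains of interleukin receptors (Il7r, Il2ra, Il2rg, Il21r, Il4ra, Il18r1, Il12rb1, Il10ra, Il17re and Il6ra), measured in sorted mouse thymocytes with and without the histone deacetylase Hdac3. They are 10 of the 23278 genes listed in each of 4 deposited tables, were found by symbol, and were picked with the values of these same tables in view, so that their values are given as a description and support nothing by their number. RNA from 8 samples of C57BL/6 thymocytes was sequenced, in 4 groups of 2: Hdac3KO DP2, WT DP2, Hdac3KO DP1 and WT DP1. The Hdac3KO animals carried floxed Hdac3 alleles (Hdac3F/F) and Cre driven by LCK, a kinase gene active in T-lineage cells, and the WT control animals were Hdac3+/+. All cells were sorted as GFP+ CD4+CD8+, that is double-positive (DP) thymocytes. DP2 cells had high surface CD5 with intermediate TCRβ, and DP1 cells had low CD5 with low TCRβ. Whether the WT animals carried Cre, what GFP marked, the age of the mice and the number of animals in each RNA pool are not given in the labels.

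Interleukin receptors are built from chains that are shared in different combinations. The common γ chain, encoded by Il2rg, pairs with private chains to bind IL-2, IL-4, IL-7, IL-15 and IL-21, and these receptors signal through JAK kinases and STAT factors. In the thymus, IL-7 receptor α is known to be present on double-negative precursors, to be shut off in DP cells and to return after positive selection, while IL-2 receptor α marks a double-negative stage and later regulatory T cells.

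Each deposited table compares a pair of groups and holds 1 FPKM per gene and group, a level in fragments scaled by transcript length and library size. Values of single libraries and total counts were not used here, so depth and the spread between libraries are unknown. The p- and q-values in the text are the authors' own, and they measure only the spread between libraries made from RNA pools, which may be technical. A gene was called at a deposited q of 0.05 or less, and a gene described as not tested had no q in that table. Each log2 difference is given ± its standard error (SE), derived from the deposited p, and the SE is an upper bound where p is at its lowest value of 5e-05. A recomputed q is a Benjamini-Hochberg adjustment over all tested genes after a change of processing that is named beside it. Hdac3 was lower in the knockout, at 15.4 FPKM in Hdac3KO DP2 against 29.7 FPKM in WT DP2, and at 11.7 FPKM in Hdac3KO DP1 against 38.1 FPKM in WT DP1, in the authors' deposited tables (-0.95 ± 0.28, q = 0.0131, in DP2 and -1.70 ± 0.42, q = 0.000879, in DP1). These are values of the whole gene, and the floxed exons were not looked at separately. All 10 DP-stage markers were present in each group, with a summed level of 7579 FPKM in Hdac3KO DP2 and 3470 FPKM in WT DP2 in the authors' deposited table. The sums were 7043 FPKM in Hdac3KO DP1 and 6306.5 FPKM in WT DP1. Rag1, which was not called, held 3006 FPKM of the sum in Hdac3KO DP2 and 671 FPKM in WT DP2 (q = 0.328 in the authors' deposited table). Of the 10 markers 4 were called higher in Hdac3KO DP2, where 6.44% of all 10674 tested genes were called higher. Xist, which coats and silences an X chromosome in female cells, stood at 139 FPKM in Hdac3KO DP2 against 0.243 FPKM in WT DP2, and at 208 FPKM in Hdac3KO DP1 against 0.0945 FPKM in WT DP1, in the authors' deposited tables. The Y-linked Kdm5d was at 0.322 against 34.6 FPKM and at 0.264 against 20.01 FPKM in those same pairs of the authors' deposited tables. Genotype and the sex of the pooled animals therefore cannot be told apart in any genotype comparison below.

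The starts of the 3 genes with the largest genotype differences are shown so that their values can be read beside the DNA at each promoter. The sequences are the RefSeq promoter stretches of build GRCm38.p6 (mm10), 5′ to 3′ on the gene's own strand and ending at the base before the annotated start. Any base inside an annotated exon is left out, and capitals mark matches to the motifs named below. The Il7r stretch is chr15:9529877-9530040 (minus strand), the Il2ra stretch is chr2:11642542-11642791 (plus strand), and the Il18r1 stretch is chr1:40465416-40465551 (plus strand), which is bounded upstream by an exon of Il1rl1. The Il7r stretch is bounded upstream by an exon of Il7r itself. It lies before the RefSeq start but inside the gene as annotated by GENCODE, which extends to base 9530176.
Il7r: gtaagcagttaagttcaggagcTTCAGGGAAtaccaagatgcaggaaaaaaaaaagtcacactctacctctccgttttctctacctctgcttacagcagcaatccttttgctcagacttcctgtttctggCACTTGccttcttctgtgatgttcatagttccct
Il2ra: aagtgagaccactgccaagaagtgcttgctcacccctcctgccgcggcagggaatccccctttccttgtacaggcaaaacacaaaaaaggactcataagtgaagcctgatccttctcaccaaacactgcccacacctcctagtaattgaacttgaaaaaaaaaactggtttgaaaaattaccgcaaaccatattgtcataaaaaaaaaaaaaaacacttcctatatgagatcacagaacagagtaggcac
Il18r1: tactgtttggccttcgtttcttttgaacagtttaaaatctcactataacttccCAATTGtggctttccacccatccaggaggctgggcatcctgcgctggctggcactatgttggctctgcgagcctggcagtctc

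Of the 10 genes, 8 had an entry in the RefSeq promoter table. Motifs were searched on both strands of the 250 bases before the RefSeq start, annotated exons included. The STAT motif TTCNNNGAA was found in Il7r alone among the 8, and it occurs in 7.02% of all 32851 promoter entries. Its match is the capitals nearest the upstream end of the Il7r sequence, at position -142 from the RefSeq start and inside the annotated gene. The E-box CANNTG was found in 6 of the 8, among them Il7r and Il18r1, and in 66.2% of all entries, so its presence sets these genes apart little. Il2ra held none of the 7 motifs in the spellings searched. Other spellings of these motifs, those of NF-kB sites among them, were not searched and may be present. The nuclear receptor element AGGTCA was in Il21r (14.0% of all entries), the Runx motif TGTGGT in Il2rg and Il21r (14.05%), the Ets motif CCGGAA in Il2rg (12.0%), the forkhead motif GTAAACA in Il21r (3.17%) and the NF-kB motif, GGG and TTTCC with any 2 bases between them, in none (1.41%). In Il21r the forkhead and Runx matches overlap. These are letter matches in a short window and describe no binding.

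In DP2 cells 9 of the 10 genes differed between genotypes, and they split 8 to 1. Il2ra, Il2rg, Il21r, Il4ra, Il18r1, Il12rb1, Il10ra and Il17re were higher in Hdac3KO DP2, while Il7r was lower. Il18r1 and Il7r lay at opposite ends, 16.8-fold higher and 15.6-fold lower than in WT DP2. Of the 10674 genes tested in that comparison 10.8% were called, 6.44% higher and 4.32% lower. The 9 genes had a median log2 difference of 1.11, and all tested genes at 1 FPKM or more had a median of 0.10. In DP1 cells 5 were higher, none was lower, 3 were not called and Il7r and Il6ra were not tested, where 23.6% of 10511 tested genes were called, 10.7% higher and 12.9% lower. The median of the 8 tested genes in DP1 was 0.75, against -0.10 for all tested genes at 1 FPKM or more. Since the genes were chosen on these tables, nothing is read from these counts.

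**Figure D1:**
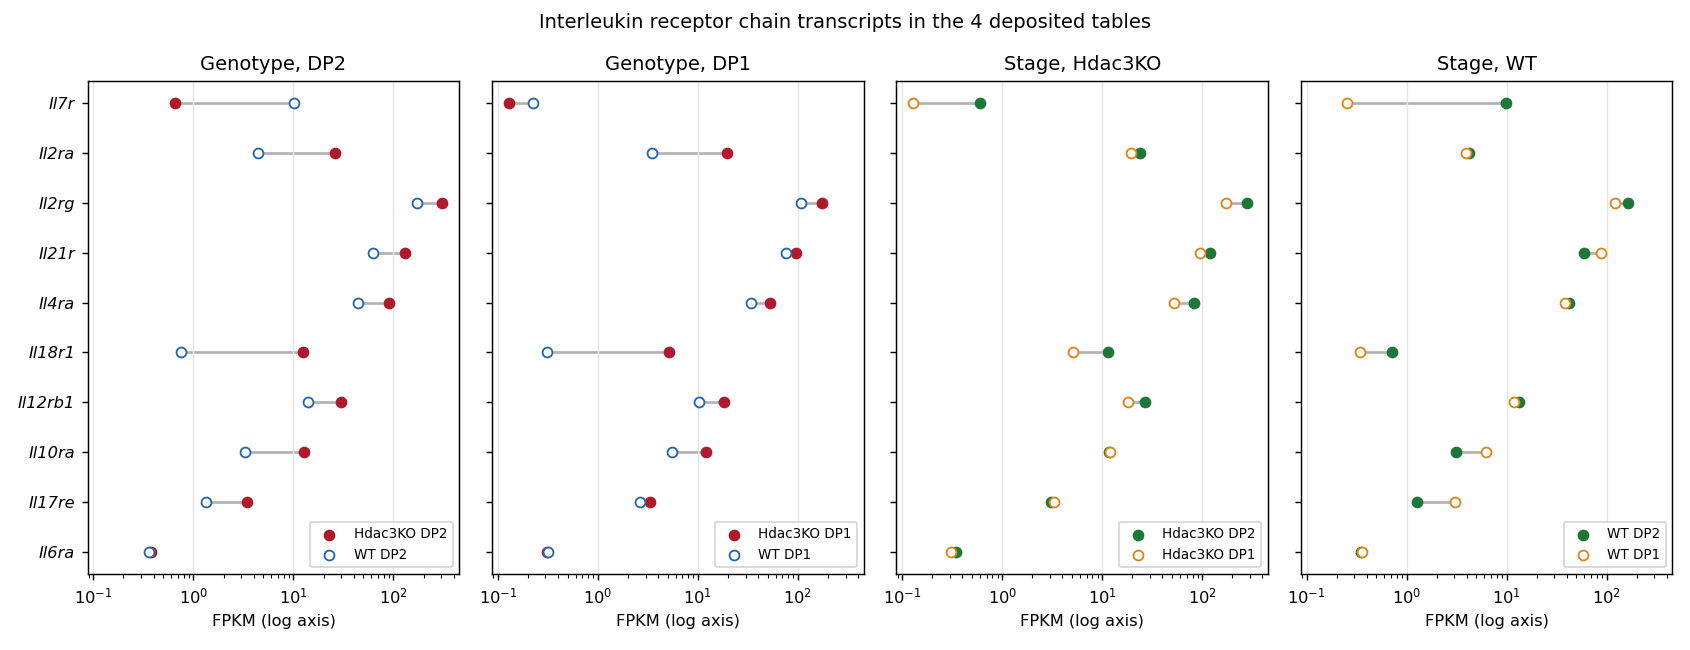
Levels of the 10 receptor chain transcripts in the 4 deposited tables (FPKM, log axis). Each row is a gene, filled points are Hdac3KO (left panels) or DP2 (right panels), open points are WT or DP1, and the line joins the pair. Il7r is the one gene far to the left in Hdac3KO DP2 (0.653 FPKM against 10.2 FPKM in WT DP2), while Il18r1 and Il2ra lie to the right in both genotype panels.

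Il2rg (mm10 chromosome X, 101264378 to 101268255, minus strand) encodes the common γ chain and had the highest level of the 10 in every group. It stood at 309 FPKM in Hdac3KO DP2 and 172 FPKM in WT DP2 in the authors' deposited table, with a log2 difference of 0.84 ± 0.22 (q = 0.00338). In DP1 it was at 175 FPKM in Hdac3KO and 108 FPKM in WT, 0.70 ± 0.25 in the authors' deposited table (q = 0.0315). Il2rg thus was higher by a similar log2 amount at both stages. It is X-linked, and X-linked genes had a median log2 difference of -0.10 in DP2 and -0.20 in DP1, against 0.12 and -0.11 for autosomal genes. The part of the sex difference in the Il2rg values was not tested. The annotated gene Gm20489 overlaps it on the same strand, and reads shared by them cannot be divided at gene level.

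Il7r (chromosome 15, 9505788 to 9530176, minus strand) encodes the α chain of the IL-7 and TSLP receptors and was the 1 chain of the 10 that fell. In DP2 it fell to 0.653 FPKM in Hdac3KO, against 10.2 FPKM in WT, a log2 difference of -3.96 ± 1.21 in the authors' deposited table (q = 0.0159). In DP1 it was near the bottom of the scale in both genotypes, 0.129 FPKM in Hdac3KO and 0.225 FPKM in WT in the authors' deposited table, and was not tested. WT DP2 is therefore the 1 group of the 4 with more than 1 FPKM of Il7r. Mature single-positive markers other than Il7r moved differently in DP2. Of the 9 on the list 3 were higher and Il7r itself was the 1 lower, where 6.44% of all tested genes were called higher and 4.32% lower. Without Il7r the levels of the list summed to 562 FPKM in Hdac3KO DP2 and 446 FPKM in WT DP2 in the authors' deposited table. Most of that sum is Cd3e, which DP cells share. Ccr7, a chemokine receptor of maturing thymocytes, was at 10.5 against 3.80 FPKM, and S1pr1, the receptor used for leaving the thymus, at 0.147 against 0.224 FPKM in the same order in the authors' deposited table. In sorted bulk samples fewer cells carrying a transcript and less transcript per cell cannot be told apart, which holds for every value here.

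Il2ra (chromosome 2, 11642807 to 11693193, plus strand), the α chain that gives the IL-2 receptor its high affinity, was higher in Hdac3KO at both stages by nearly the same amount. It stood at 26.3 FPKM in Hdac3KO DP2 and 4.41 FPKM in WT DP2 (2.58 ± 0.64, q = 0.00134), and at 19.6 FPKM in Hdac3KO DP1 and 3.49 FPKM in WT DP1 (2.49 ± 0.61, q = 0.000879), in the authors' deposited tables. Both Hdac3KO values thus lay above both WT values. Il2ra also marks double-negative cells and regulatory T cells, so the other markers of both are given beside it. The 11 other double-negative markers summed to 27.4 FPKM in Hdac3KO DP2 and 230 FPKM in WT DP2, and to 15.9 FPKM in Hdac3KO DP1 and 56.7 FPKM in WT DP1, in the authors' deposited tables. Hhex, a homeobox gene that fell, made up most of each WT sum. Cd44, on the same list, was also called lower in DP2, at 0.721 FPKM in Hdac3KO and 4.37 FPKM in WT (-2.60 ± 0.67, q = 0.00245), in the authors' deposited table. In DP1 Cd44 was at 0.719 FPKM in Hdac3KO and 1.93 FPKM in WT in the authors' deposited table and was not tested. The rest of that list differed in direction. Kit, the stem cell factor receptor of early thymocytes, was at 1.45 FPKM in Hdac3KO DP2 and 0.414 FPKM in WT DP2, and at 1.45 FPKM in Hdac3KO DP1 and 0.504 FPKM in WT DP1, in the authors' deposited tables, and was not tested. The 7 other regulatory T cell markers summed to 42.6 FPKM in Hdac3KO DP2 and 118 FPKM in WT DP2, and to 24.6 FPKM in Hdac3KO DP1 and 39.0 FPKM in WT DP1, in the authors' deposited tables. Foxp3, the lineage factor of regulatory T cells, was at 0.671 FPKM in Hdac3KO DP2 and 0.693 FPKM in WT DP2, and at 0.662 FPKM in Hdac3KO DP1 and 0.191 FPKM in WT DP1, in the authors' deposited tables. No marker of either list was listed at 0. Ikzf2, a factor also made by other T cells, held 24.0 FPKM of the regulatory T cell sum in Hdac3KO DP2 and 94.8 FPKM in WT DP2 in the authors' deposited table. The part of either cell type in the Il2ra values was not tested.

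Il4ra and Il21r, the private chains of the IL-4 and IL-21 receptors, are neighbours on chromosome 7, on the same strand and 23955 bases apart (Il4ra at 125552120 to 125579474, Il21r at 125603429 to 125633570, plus strand). Both were higher in Hdac3KO DP2. Il4ra stood at 90.5 FPKM in Hdac3KO DP2 and 44.3 FPKM in WT DP2 (1.03 ± 0.25, q = 0.00134), and Il21r at 131 FPKM in Hdac3KO DP2 and 61.9 FPKM in WT DP2 (1.09 ± 0.27, q = 0.00134), in the authors' deposited table. In DP1 neither passed. Il4ra was at 52.7 FPKM in Hdac3KO DP1 and 33.7 FPKM in WT DP1, with a q just outside the threshold in the authors' deposited table (0.65 ± 0.26, q = 0.0502), and alternatives moved it to either side. It was called relative to the median gene (0.76, recomputed q = 0.0199) and at a minimum of 5 FPKM (recomputed q = 0.0471), and not called with adjustment over all 4 tables (recomputed q = 0.0680) or with the length trend removed (0.47, recomputed q = 0.214). Il21r was at 94.96 FPKM in Hdac3KO DP1 and 76.6 FPKM in WT DP1 in the authors' deposited table (0.31 ± 0.25, q = 0.383). The log2 differences in DP2 exceeded those in DP1 by 0.38 for Il4ra and 0.78 for Il21r, and these gaps were not tested. The antisense gene Gm44876 overlaps Il4ra, and the strand setting of the counting is not given in the sources used here, so their reads cannot be told apart.

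Il18r1 (chromosome 1, 40465552 to 40500854, plus strand), the ligand-binding chain of the IL-18 receptor, showed the largest genotype difference of the set at both stages. It stood at 12.5 FPKM in Hdac3KO DP2 and 0.744 FPKM in WT DP2 (4.07 ± 1.0, q = 0.00134), and at 5.11 FPKM in Hdac3KO DP1 and 0.308 FPKM in WT DP1 (4.05 ± 1.33, q = 0.0158), in the authors' deposited tables. The log2 difference was thus almost the same at both stages. Its 4 listed neighbours, Il1rl1, Il18rap, Il1rl2 and Il1r1, are all genes of the same receptor family, and none was called between genotypes. Il1rl1, which encodes the IL-33 receptor chain and ends 137 bases upstream, was at 1.05 FPKM in Hdac3KO DP2 and 0.661 FPKM in WT DP2, and Il18rap, 14508 bases downstream, at 0.618 and 0.533 FPKM in the same groups of the authors' deposited table, both not tested. In DP1 Il18rap was at 0.613 FPKM in Hdac3KO and 0.133 FPKM in WT in the authors' deposited table, also not tested. Il1rl2, a receptor chain of the IL-36 cytokines, was at 5.86 FPKM in Hdac3KO DP2 and 8.003 FPKM in WT DP2 in the authors' deposited table (q = 0.593). IL-18 receptors are abundant on NK cells and innate-like T cells, and 9 of 10 markers of γδ T and NK cells were in the tables. These markers summed to 3.29 FPKM in Hdac3KO DP2 and 5.61 FPKM in WT DP2, and to 1.87 FPKM in Hdac3KO DP1 and 2.01 FPKM in WT DP1, in the authors' deposited tables. Only Tbx21 among them was tested between genotypes, and it was not called, where 10.8% of all tested genes were called in DP2 and 23.6% in DP1. The members of that list differed in direction. Tbx21, a factor of NK and effector T cells, had the highest level, with 1.06 FPKM in Hdac3KO DP2 and 2.92 FPKM in WT DP2 in the authors' deposited table. Klrb1c, the NK1.1 gene, was at 0.858 FPKM in Hdac3KO DP2 and 0.215 FPKM in WT DP2, and at 0.588 FPKM in Hdac3KO DP1 and 0.115 FPKM in WT DP1, in the authors' deposited tables. Ncr1, an activating NK receptor gene, was at 0.197 FPKM in Hdac3KO DP2 and 0.0828 FPKM in Hdac3KO DP1 and was listed at 0 in both WT groups of the authors' deposited tables. Klrd1, an NK receptor gene, was listed at 0 in both Hdac3KO groups and in WT DP1, and Zbtb16, a factor of innate-like T cells, was at 0.231 FPKM in Hdac3KO DP2 and 0.144 FPKM in WT DP2 in the authors' deposited table. The part of such cells in the Il18r1 values was not tested.

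Il12rb1 (chromosome 8, 70808449 to 70821424, plus strand), the chain shared by the IL-12 and IL-23 receptors, and Il10ra (chromosome 9, 45253837 to 45269149, minus strand), the ligand-binding chain of the IL-10 receptor, were higher in Hdac3KO at both stages. Il12rb1 stood at 29.9 FPKM in Hdac3KO DP2 and 13.8 FPKM in WT DP2 (1.11 ± 0.27, q = 0.00134), and at 18.1 FPKM in Hdac3KO DP1 and 10.3 FPKM in WT DP1 (0.81 ± 0.26, q = 0.0119), in the authors' deposited tables. Il10ra stood at 12.9 FPKM in Hdac3KO DP2 and 3.29 FPKM in WT DP2 (1.97 ± 0.49, q = 0.00134), and at 12.1 FPKM in Hdac3KO DP1 and 5.53 FPKM in WT DP1 (1.13 ± 0.29, q = 0.00154), in the authors' deposited tables. For Il10ra the 2 Hdac3KO values were nearly equal, and the WT value was lower in DP2 than in DP1. Both chains are also made by myeloid cells, and of 14 myeloid markers 13 were in the tables. They summed to 24.5 FPKM in Hdac3KO DP2 and 12.0 FPKM in WT DP2, and to 15.4 FPKM in Hdac3KO DP1 and 7.32 FPKM in WT DP1, in the authors' deposited tables. Of all tested genes 6.44% were called higher in DP2 and 10.7% in DP1. Itgam, the CD11b gene, was the 1 called marker, higher in Hdac3KO at both stages, and made up most of each Hdac3KO sum but not of the WT sums. It stood at 15.7 FPKM in Hdac3KO DP2 and 1.60 FPKM in WT DP2, and at 9.58 FPKM in Hdac3KO DP1 and 2.40 FPKM in WT DP1, in the authors' deposited tables. Lyz2, the lysozyme gene of macrophages and neutrophils, was at 2.50 FPKM in Hdac3KO DP2 and 2.80 FPKM in WT DP2 in the authors' deposited table, and S100a8, an abundant neutrophil gene, was listed at 0 in all 4 groups. A pseudogene, Gm20612, and a miRNA gene, Mir7086, overlap Il10ra in the annotation. The part of myeloid RNA in the Il12rb1 and Il10ra values was not tested.

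Il17re (chromosome 6, 113458484 to 113470758, plus strand), a chain of the IL-17C receptor, was at 3.42 FPKM in Hdac3KO DP2 and 1.33 FPKM in WT DP2 in the authors' deposited table (1.36 ± 0.46, q = 0.0349). That call ended relative to the median gene, which lay at 0.12 in DP2 (1.25, recomputed q = 0.0627). In DP1 it did not pass, at 3.32 FPKM in Hdac3KO and 2.66 FPKM in WT in the authors' deposited table (0.32 ± 0.32, q = 0.499). Il6ra (chromosome 3, 89864059 to 89913196, minus strand), the ligand-binding chain of the IL-6 receptor, was the 1 gene of the set without a test anywhere. It was at 0.379 FPKM in Hdac3KO DP2, 0.363 FPKM in WT DP2, 0.313 FPKM in Hdac3KO DP1 and 0.314 FPKM in WT DP1 in the authors' deposited tables. Its 4 values lay close together and under 1 FPKM. An antisense gene, Gm42809, overlaps it.

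**Figure D2:**
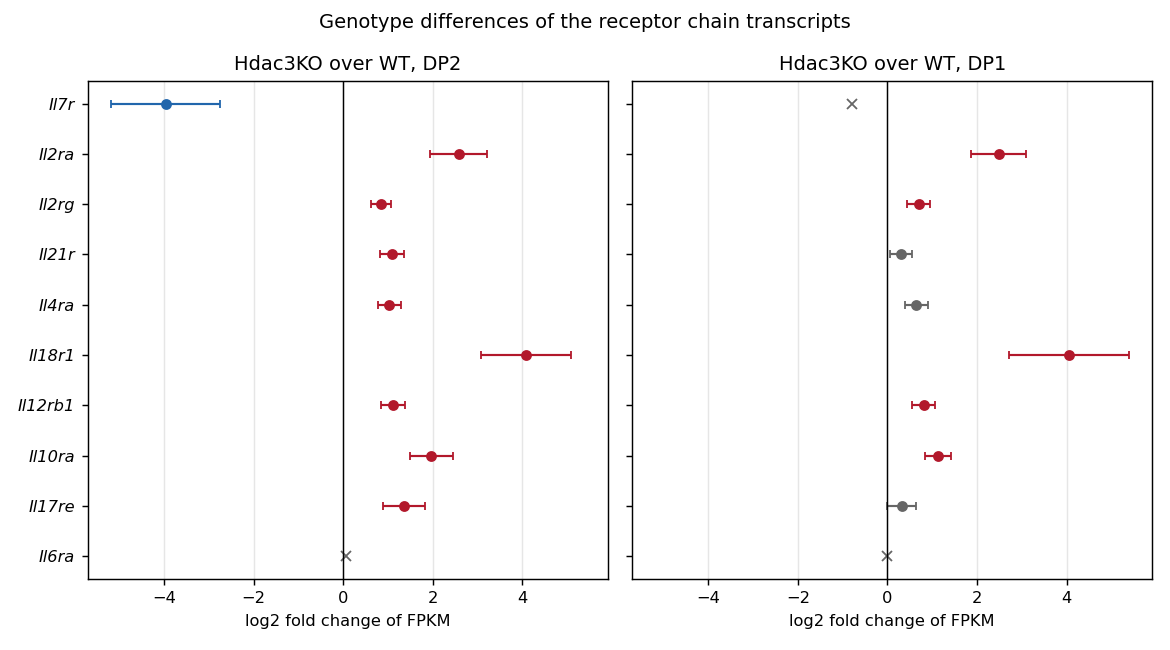
Log2 difference of FPKM, Hdac3KO over WT, in DP2 (left) and DP1 (right) cells, with bars of 1 SE derived from the deposited p. Red marks genes called higher, blue called lower, grey not called, and crosses genes without a test. Il7r is the 1 blue point, at -3.96 in DP2, and Il18r1 lies near 4.07 and 4.05 in the 2 panels.

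The stages were compared within each genotype, and whether a stage difference differs between genotypes was not tested. The stage tables normalize each group anew, and the FPKM of a group differ from those above by a median ratio of genotype table to stage table of 1.10 in Hdac3KO DP2, 1.04 in WT DP2, 0.999 in Hdac3KO DP1 and 0.881 in WT DP1. The stage tables use the same libraries as the genotype tables and are no independent evidence. In Hdac3KO cells 3 of 8 tested genes were higher in DP2 (Il2rg, Il4ra and Il18r1) and none was lower, where 6.43% of 10231 tested genes were called, 1.78% higher and 4.65% lower. In WT cells 1 of 8 was higher in DP2 (Il7r) and 2 were lower (Il10ra and Il17re), where 22.3% of 10851 tested genes were called, 5.56% higher and 16.8% lower. The medians were 0.46 in Hdac3KO and 0.11 in WT cells, against 0.01 and -0.27 for all tested genes at 1 FPKM or more.

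Il7r had the largest stage difference of the set in WT cells, larger than any of its genotype differences. It stood at 9.88 FPKM in WT DP2 and 0.253 FPKM in WT DP1, 39.1-fold higher, in the authors' deposited table (5.29 ± 2.01, q = 0.0417). In Hdac3KO cells it was at 0.595 FPKM in DP2 and 0.130 FPKM in DP1 in the authors' deposited table, and was not tested. The log2 stage difference was 2.20 in Hdac3KO and 5.29 in WT cells, a gap of -3.09 that was not tested, and both low values make it imprecise. The WT call ended with adjustment over all 4 tables (recomputed q = 0.0541).

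Il18r1 was higher in DP2 in Hdac3KO cells, at 11.4 FPKM in DP2 and 5.13 FPKM in DP1 in the authors' deposited table (1.15 ± 0.31, q = 0.00633). In WT cells it was at 0.716 FPKM in DP2 and 0.346 FPKM in DP1 in the authors' deposited table, a log2 difference of 1.05 without a test. The log2 stage differences of Il18r1 were thus close in both genotypes, and their difference was not tested. Il2rg stood at 280.2 FPKM in Hdac3KO DP2 and 175 FPKM in Hdac3KO DP1 (0.68 ± 0.21, q = 0.0230), and at 165 FPKM in WT DP2 and 123 FPKM in WT DP1 (0.43 ± 0.27, q = 0.259), in the authors' deposited tables. Il4ra stood at 82.0 FPKM in Hdac3KO DP2 and 52.5 FPKM in Hdac3KO DP1 (0.64 ± 0.21, q = 0.0363), and at 42.3 FPKM in WT DP2 and 38.4 FPKM in WT DP1 (0.14 ± 0.28, q = 0.757), in the authors' deposited tables. Both genes of the IL-4 receptor were thus higher in DP2 with a call in Hdac3KO cells, and whether the genotypes differ in this was not tested.

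Il10ra and Il17re were lower in DP2 than in DP1 in WT cells. Il10ra was at 3.15 FPKM in WT DP2 and 6.30 FPKM in WT DP1 (-0.999 ± 0.38, q = 0.0397), and Il17re at 1.27 FPKM in WT DP2 and 3.03 FPKM in WT DP1 (-1.26 ± 0.45, q = 0.0282), in the authors' deposited table. The median gene of that table lay at -0.33, and relative to it neither was called (Il10ra -0.67, recomputed q = 0.218, and Il17re -0.93, recomputed q = 0.136), while Il2rg was called higher (0.76, recomputed q = 0.0375). In Hdac3KO cells Il10ra was at 11.7 FPKM in DP2 and 12.1 FPKM in DP1 (-0.05 ± 0.24, q = 0.968), and Il17re at 3.10 FPKM in DP2 and 3.32 FPKM in DP1 (-0.10 ± 0.31, q = 0.946), in the authors' deposited table. Il21r had differences of 0.33 ± 0.20 in Hdac3KO (q = 0.463) and -0.56 ± 0.28 in WT cells (q = 0.135) in the authors' deposited tables. Il2ra (0.29 ± 0.22, q = 0.601, in Hdac3KO and 0.09 ± 0.35, q = 0.889, in WT) and Il12rb1 (0.59 ± 0.22, q = 0.0861, in Hdac3KO and 0.16 ± 0.29, q = 0.738, in WT) did not pass in the authors' deposited tables. Il6ra stayed under 1 FPKM at each stage.

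**Figure D3:**
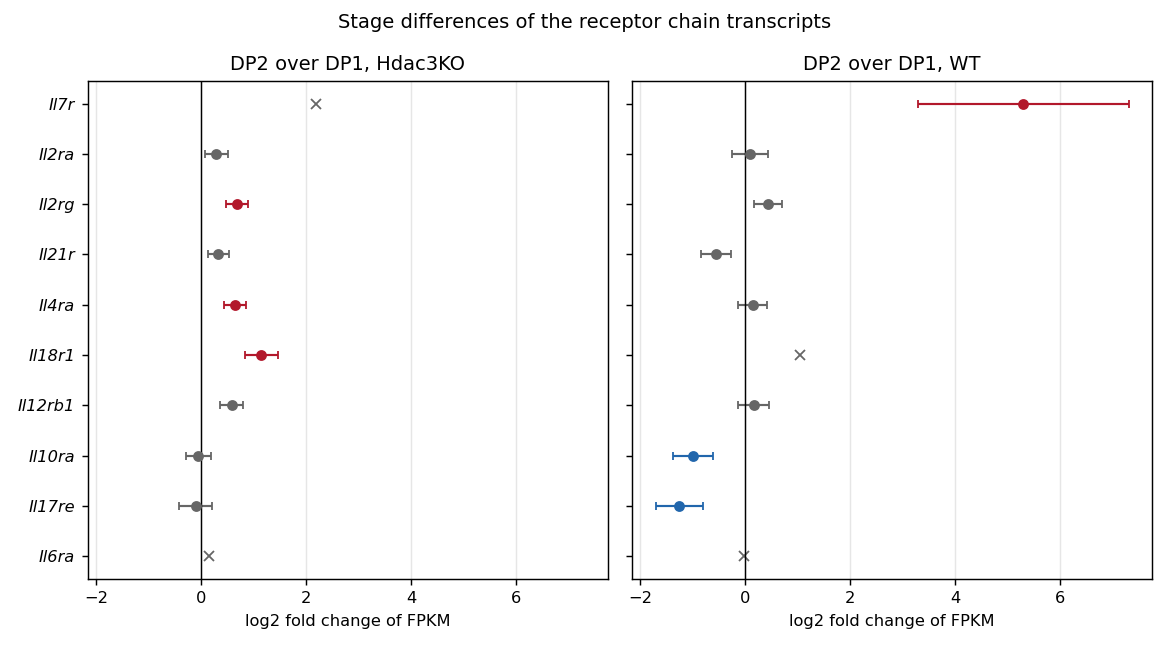
Log2 difference of FPKM, DP2 over DP1, in Hdac3KO (left) and WT (right) cells, with bars of 1 SE derived from the deposited p and colours as for the genotype differences. Il7r lies at 5.29 in WT cells, and Il10ra and Il17re are the 2 blue points, at -0.999 and -1.26 in WT cells.

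Interleukin receptors act as complexes of chains, and the partners of the 10 genes were set beside them. The partner genes were picked after their values were seen. In DP2 the chains of 1 receptor often differed in direction or level. For the IL-2 receptor Il2rb, the signalling β chain, was at 0.195 FPKM in Hdac3KO DP2 and 0.952 FPKM in WT DP2 in the authors' deposited table and was not tested, beside Il2ra and Il2rg that were both higher in Hdac3KO. For the IL-12 receptor Il12rb2, its second chain, was lower at 3.12 FPKM in Hdac3KO DP2 and 7.71 FPKM in WT DP2 in the authors' deposited table (-1.30 ± 0.45, q = 0.0402), where Il12rb1 was higher. Crlf2, the TSLP receptor chain that pairs with Il7r, was lower together with it, at 1.30 FPKM in Hdac3KO DP2 and 6.06 FPKM in WT DP2 in the authors' deposited table (-2.22 ± 0.55, q = 0.00134). Il10rb, the partner of Il10ra, was at 4.75 FPKM in Hdac3KO DP2 and 4.60 FPKM in WT DP2 in the authors' deposited table (0.05 ± 0.40, q = 0.965). Il17ra, the shared chain of the IL-17 receptors, was higher like Il17re, at 61.3 FPKM in Hdac3KO DP2 and 34.0 FPKM in WT DP2 in the authors' deposited table (0.85 ± 0.24, q = 0.00666). Il6st, the gp130 chain that pairs with Il6ra, was lower at 57.3 FPKM in Hdac3KO DP2 and 95.0 FPKM in WT DP2 in the authors' deposited table (-0.73 ± 0.24, q = 0.0266).

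**Figure D4:**
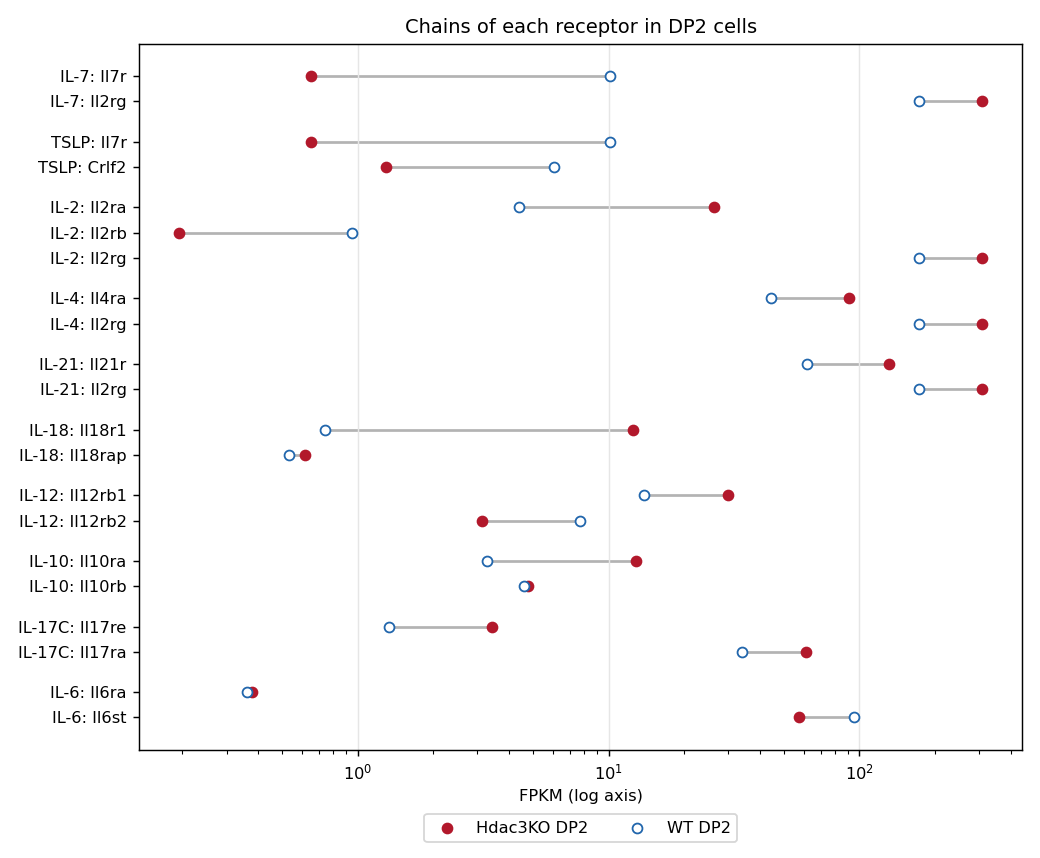
Levels in DP2 cells (FPKM, log axis) of the chains of each receptor, grouped by ligand, in Hdac3KO (filled) and WT (open) cells. The chains of the IL-4, IL-21 and IL-17C receptors all lie to the right in Hdac3KO, those of the TSLP receptor to the left, and those of the IL-2, IL-7 and IL-12 receptors in both directions.

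The 36 other interleukin and related receptor chains on a list of the family were counted by the same calls. Of all tested genes 6.44% were called higher and 4.32% lower in DP2, and 10.7% higher and 12.9% lower in DP1. Between stages 6.43% of all tested genes were called in Hdac3KO and 22.3% in WT cells. These shares stand beside the counts of every gene list below as well. In DP2 18 were tested, with 1 higher in Hdac3KO (Il17ra) and 4 lower (Il17rb, Crlf2, Il12rb2 and Il6st), and a median of -0.48. Il17rb, a chain of the IL-25 receptor, had the largest difference, with 5.61 FPKM in Hdac3KO DP2 and 42.2 FPKM in WT DP2 in the authors' deposited table (-2.91 ± 0.72, q = 0.00134). In DP1 18 were tested, with none higher and 1 lower, Csf2ra, the α chain of the GM-CSF receptor, and a median of -0.01. Between stages none of 14 tested was called in Hdac3KO cells, while in WT cells 3 of 19 were higher in DP2 (Il17rb, Il6st and Il2rb) and none was lower. Il17rb resembled Il7r in that WT DP2 was its highest group, with 40.7 FPKM in WT DP2 and 6.86 FPKM in WT DP1 in the authors' deposited table. Not every tested receptor chain was thus higher in Hdac3KO DP2. The set was picked with these same values in view, which took higher chains out of the 36 others beforehand. The counts of the others therefore cannot show how general higher levels were among receptor chains.

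**Figure D5:**
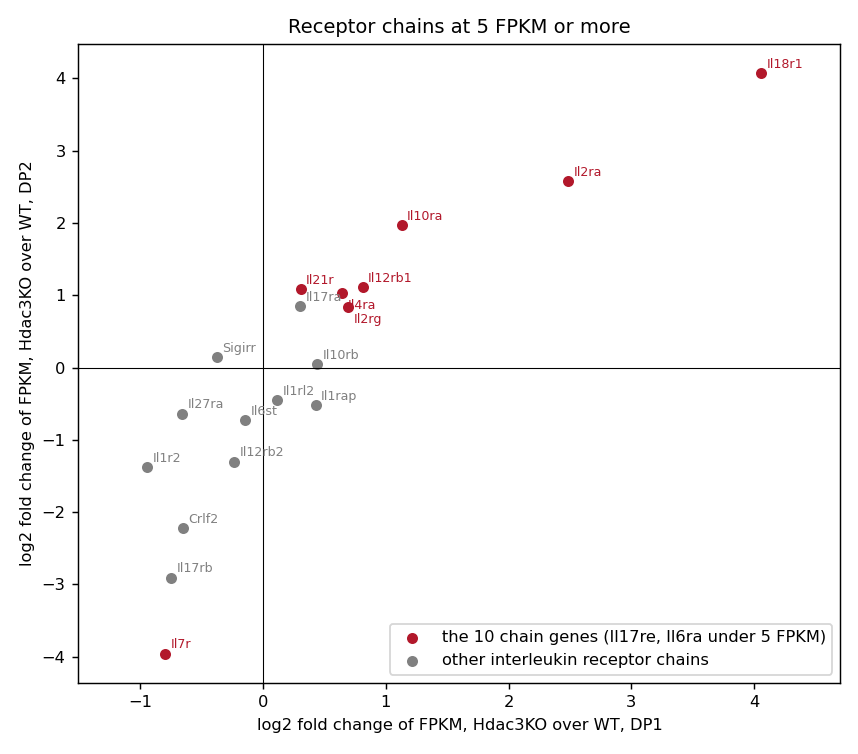
Log2 difference of FPKM, Hdac3KO over WT, in DP2 (vertical) against DP1 (horizontal) for receptor chain genes with at least 5 FPKM in a group. Red points are genes of the set of 10, grey points other chains. Il18r1 (4.05 in DP1, 4.07 in DP2) and Il2ra (2.49, 2.58) lie at the upper right, and Il17rb and Crlf2 lie near Il7r at the lower left.

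Transcripts of the ligands were scarce. Of 37 interleukin genes 5 were tested in DP2, where Il16 (144 FPKM in Hdac3KO DP2 and 78.9 FPKM in WT DP2) and Il34 (3.23 FPKM in Hdac3KO DP2 and 0.684 FPKM in WT DP2) were higher in the authors' deposited table. None of the 5 tested was called in DP1, none of 5 between stages in Hdac3KO and none of 4 in WT cells. Il18, the ligand of the Il18r1 product, was listed at 0 in all 4 groups. Il7 was at 0.265 FPKM in Hdac3KO DP2 and 0.116 FPKM in WT DP2 and was listed at 0 in DP1 of both genotypes, and Il2 was listed at 0 in all groups but Hdac3KO DP1 (0.331 FPKM), in the authors' deposited tables.

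For the kinases and STAT factors behind the receptors, all 11 JAK and STAT genes were tested. Of all tested genes 10.8% were called between genotypes in DP2 and 23.6% in DP1, and nothing is read from the count on this list. Stat4, which acts below the IL-12 receptor, was the 1 called between genotypes in each stage. It stood at 37.2 FPKM in Hdac3KO DP2 and 20.6 FPKM in WT DP2 (0.85 ± 0.27, q = 0.0188), and at 35.9 FPKM in Hdac3KO DP1 and 14.9 FPKM in WT DP1 (1.27 ± 0.31, q = 0.000879), in the authors' deposited tables. Between stages Tyk2 was higher in Hdac3KO DP2 and Jak2 in WT DP2, and no JAK or STAT gene was lower. Between stages 6.43% of all tested genes were called in Hdac3KO and 22.3% in WT cells. Jak3, the kinase bound to the common γ chain, was at 3.28 FPKM in Hdac3KO DP2 and 3.26 FPKM in WT DP2 (q = 0.991), and Stat5b, a main factor below the IL-7 and IL-2 receptors, at 87.1 FPKM in Hdac3KO DP2 and 72.3 FPKM in WT DP2 (q = 0.549), in the authors' deposited table. Both were picked after their values were seen.

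Among 16 inhibitors of cytokine signalling, 2 of 14 tested were higher in Hdac3KO DP2 and 1 was lower, and in DP1 1 of 13 was higher and 1 lower. Socs3, a feedback inhibitor that cytokines induce, stood at 10.5 FPKM in Hdac3KO DP2 and 2.34 FPKM in WT DP2 (2.17 ± 0.54, q = 0.00134), and at 10.3 FPKM in Hdac3KO DP1 and 5.98 FPKM in WT DP1 (0.79 ± 0.29, q = 0.0303), in the authors' deposited tables. Socs1, which limits γ chain receptors, was at 41.0 FPKM in Hdac3KO DP2 and 21.6 FPKM in WT DP2 in the authors' deposited table. Socs5 was the lower gene in DP2 and Ptpn6, a phosphatase gene, the lower gene in DP1. In WT cells Socs1, Socs3 and Pias4 were lower in DP2 and Socs5 was higher, of 14 tested, while in Hdac3KO cells Ptpn6 was the 1 called of 13, higher in DP2. Of 12 adaptor genes of the IL-18 and IL-17 receptors, 1 of 11 tested was called in DP2 (Traf2, higher) and 1 of 11 in DP1 (Tab2, higher), none of 10 between stages in Hdac3KO, and 1 of 10 in WT cells (Traf2, lower in DP2).

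Of 15 genes that γ chain cytokines are known to induce, 11 were tested in DP2, with 5 higher in Hdac3KO (Bcl2l1, Mcl1, Socs1, Socs3 and Ccnd3) and 2 lower (Bcl2 and Ccnd2). Bcl2, a survival gene that IL-7 maintains in T cells, was at 4.65 FPKM in Hdac3KO DP2 and 15.8 FPKM in WT DP2 in the authors' deposited table (-1.76 ± 0.43, q = 0.00134), the same direction as Il7r. A link between the Bcl2 and Il7r values was not tested. Bcl2l1, the survival gene typical of DP cells, was at 81.0 FPKM in Hdac3KO DP2 and 37.9 FPKM in WT DP2 in the authors' deposited table (1.09 ± 0.27, q = 0.00134). In DP1 10 were tested, with Mcl1 and Socs3 higher and Myc lower. Between stages in Hdac3KO none of 10 tested was called. In WT cells 2 of 11 were higher in DP2 (Bcl2 and Ccnd2) and 6 were lower (Bcl2l1, Pim1, Socs1, Socs3, Ccnd3 and Myc), and Bcl2 was at 15.0 FPKM in WT DP2 and 2.34 FPKM in WT DP1 in the authors' deposited table.

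Of 21 genes for factors known to act on Il7r or Il2ra, 3 of 19 tested were higher in Hdac3KO DP2 (Foxo1, Bcl6 and Nfatc2) and none was lower. Foxo1, known as an activator of Il7r in T cells, was at 12.5 FPKM in Hdac3KO DP2 and 6.44 FPKM in WT DP2 in the authors' deposited table (0.96 ± 0.25, q = 0.00245), the opposite direction to Il7r. The part of Foxo1 or of any other listed factor in the Il7r and Il2ra values was not tested. Bcl6, a transcriptional repressor that binds the NCoR and SMRT corepressors, was at 118 FPKM in Hdac3KO DP2 and 48.8 FPKM in WT DP2 in the authors' deposited table (1.27 ± 0.31, q = 0.00134). Nfatc2, a factor that acts on Il2ra after T cell receptor signals, was at 12.4 FPKM in Hdac3KO DP2 and 5.56 FPKM in WT DP2 in the authors' deposited table. In DP1 4 of 20 were higher (Runx1, Bcl6, Rel and Nfatc2) and none was lower. Between stages Runx1 was lower in Hdac3KO DP2, the 1 call of 19, and Gata3, Rel and Nfatc1 were higher in WT DP2, of 20 tested.

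The genes most like Il7r, Il2ra and Il18r1 were taken as those with the smallest Euclidean distance over the 4 log2 differences, among 8145 genes. These 8145 were tested in all 4 tables and had at least 5 FPKM in some group. Unnamed loci, small RNAs and joint symbols were left out. Ankrd6 (distance 0.407), Loxl2 (0.434) and Gramd3 (0.502) lay closest to Il2ra. Loxl2, for instance, had log2 differences between genotypes of 2.28 in DP2 and 2.58 in DP1. Spsb1 (1.12), Ankrd55 (1.67) and Gimap7 (1.84) lay closest to Il18r1, and Itm2a (2.78), Egr2 (2.87) and Id2 (3.33), genes that T cell receptor signals raise in selected thymocytes, to Il7r. Among the genes compared, none lay as near to Il7r or Il18r1 as these did to Il2ra. Il7r and Il18r1 were themselves not tested in all 4 tables, so genes with the same gaps were left out beforehand. Their distances therefore cannot be set against those of Il2ra. The 4 differences come from 4 groups that each enter 2 tables, and 2 of those of Il7r and 1 of those of Il18r1 were without a test.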

How the data were processed

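RNA of 8 samples in 4 groups of 2 was measured. Per the labels' protocols, Trizol extraction of total RNA and ribosomal RNA depletion preceded stranded library construction (Clontech SMARTer) from RNA pools. Trimmomatic 0.32, TopHat2 2.0.11, Cuffdiff 2.1.1 and mm10 are named in the submitters' processing notes. Settings and gene annotation are not given in the sources used here. The authors deposited FPKM, 1 value per gene and group, normalized within each of 4 tables, with their p-value and q-value per gene.

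Groups follow the sample labels. Log2 differences were computed from the deposited FPKM, and calls are the authors' q at 0.05. The 4 comparisons are genotype in DP2 and in DP1, and stage in Hdac3KO and in WT. SE are the absolute log2 difference over the two-sided normal deviate of the deposited p. Simulated data checked only the arithmetic of this step, since their p came from the same formula. Whether the deposited p follow that formula was not tested, so the SE are approximate. Depth is unknown, so no interval is given. List medians cover genes with at least 1 FPKM in either group, and the median gene is taken over genes at 10 FPKM or more in each group. Positions and exons are from GENCODE M21 (mm10), and promoter sequences from RefSeq (GRCm38.p6). Python 3.11.15, numpy 2.4.6, pandas 2.3.3, scipy 1.17.1, statsmodels 0.14.6 and matplotlib 3.10.9 were used.

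The members and the 7 gene lists (142 symbols, all in the tables) and 9 marker lists were chosen with earlier results of these data known. All 10 members are named. From each list at most 4 called genes per comparison are given with values, those with the largest log2 difference among genes at 1 FPKM or more in the higher group and 0.1 FPKM or more in the lower, and other genes named were chosen after their values were seen. Alternatives were q of 0.01 and 0.10, a log2 difference of at least 1, adjustment over all 4 tables, pseudocounts of 1 and 0.1 FPKM, a minimum of 5 FPKM, centring on the median gene, the values of the other tables, and removal of a transcript length trend (lowess, fraction 0.3), each with q recomputed by Benjamini-Hochberg adjustment where it changes p or the genes tested.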

Additional observations from a re-analysis of the deposited data

How the results depend on the processing

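Under the alternatives run, no gene of the set but Il6ra changed direction. Il6ra, which was never tested, went to 0.10 in DP1 and -0.05 in DP2 (Hdac3KO over WT) and to 0.30 in WT cells (DP2 over DP1) relative to the median gene, and to -0.07 in DP2 with the length trend removed. Of 388 recomputed values of single genes, 349 kept their side of the threshold or moved little, 24 lost a call, 7 gained one and 8 moved. With pseudocounts of 1 and 0.1 FPKM and with the values of the other tables the deposited q was kept. No call could change there, and these settings gave 37, 38 and 40 of the 349, so the tally overstates how stable the calls were. At a q of 0.01 the genes called higher were 2 in Hdac3KO DP1 (5 as deposited), those lower in Hdac3KO DP2 0 (1), those higher in DP2 in Hdac3KO cells 1 (3), and in WT cells those higher in DP2 0 (1) and lower 0 (2). With a log2 difference of at least 1 they were 3 higher in Hdac3KO DP1, 1 higher in DP2 in Hdac3KO cells and 1 lower in DP2 in WT cells. The stage comparison in WT cells depended most on the processing. There adjustment over all 4 tables left 0 higher and 1 lower, a minimum of 5 FPKM left 1 lower, centring on the median gene gave 2 higher and 0 lower, and removal of the length trend gave 2 higher and 0 lower. Why these counts moved was not tested beyond the construction of each alternative. No paired analysis was possible because the tables hold 1 value per gene and group, and for the same reason no replicate could be left out. Depth is unknown, and genes under 1 FPKM (Il6ra, Il7r outside WT DP2, and Il18r1 in WT) have imprecise ratios.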
